A study of Mus musculus with 36 samples.

Results

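Cldn5, Slc2a1, Slco1a4, Abcb1a, Ly6c1, Pecam1, Cdh5, Tek, Flt1 and Kdr, 10 genes of brain endothelial cells and of the blood-brain barrier, were taken by their symbols from the 24421 genes listed in both count tables of a study of Pogz-deficient mice. All 10 were listed in both tables and all 10 passed the filter on low counts in both tissues. The study sequenced RNA of the cerebellum and the hippocampus of 18 adult C57Bl/6 mice. The 6 control mice were Pogz fl/fl without Cre, the 6 cKO+/- mice carried NesCre and Pogz fl/+, and the 6 cKO-/- mice carried NesCre and Pogz fl/fl, with 3 males and 3 females in each genotype. Cre under the Nestin promoter removes the floxed exons 13 to 19 of Pogz in neural progenitors and their descendants, so that brain endothelial cells lie outside the lineage in which the allele is deleted. No control carried Cre, and the presence of Cre cannot be told apart from the loss of Pogz.

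Endothelial cells line the vessels of the brain. Tight junctions seal the gaps between them, transporters carry glucose and other solutes across them or pump drugs back into the blood, and receptors for vascular growth factors on their surface hold the vessels in shape. Cldn5 encodes claudin-5, the main tight junction protein of these cells, and Slc2a1 encodes the glucose transporter GLUT1, which astrocytes also make. Slco1a4 (an organic anion transporter) and Abcb1a (P-glycoprotein) are transporters of the barrier, and Ly6c1 is a surface antigen of mouse brain endothelium. Pecam1 and Cdh5 encode the adhesion proteins CD31 and VE-cadherin of endothelial junctions, Tek the angiopoietin receptor Tie2, and Flt1 and Kdr the VEGF receptors 1 and 2. In whole tissue, fewer endothelial cells and less of these RNAs per cell cannot be told apart.

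The gene models of the tables lie on GRCm38 coordinates. Cldn5 is at chr16:18776847-18778262, Slc2a1 at chr4:119108745-119137329, Slco1a4 at chr6:141805440-141856171, Abcb1a at chr5:8660092-8748570 and Ly6c1 at chr15:75044018-75048837. Pecam1 is at chr11:106654213-106715281, Cdh5 at chr8:104101625-104144502, Tek at chr4:94739289-94874976, Flt1 at chr5:147562196-147725988 and Kdr at chr5:75933270-75978428. None of the 10 shared exon bases with another gene of the tables. Of the windows of 43 bases, the read length, in the GENCODE M1 transcripts of Ly6c1, 38% also occurred in other genes, mostly Ly6c2, and of those of Abcb1a 19%, mostly in Abcb1b, so that counts of these 2 members are less certain. The share was 3.77% for Slco1a4, 0.152% for Flt1 and 0 for the other 6 members.

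Promoter windows of 8 members were found in RefSeq (GRCm38.p6), from 250 bases before to 50 bases after the start. Pecam1 and Cdh5 had no entry. The RefSeq start of Abcb1a lay 93001 bases upstream of the gene model in the tables, so that its window is not at the start of that model, and the other 7 starts lay within 49 bases of theirs. The windows of the 4 members that passed the test of a Pogz allele effect in the cerebellum (Slc2a1 and Ly6c1) or the hippocampus (Tek and Kdr) and had an entry are shown, 5′ to 3′, with GC boxes (GGGCGG, either strand) and ETS core motifs (AGGAAG, either strand) in capitals.
Slc2a1, chr4:119108495-119108794, plus strand: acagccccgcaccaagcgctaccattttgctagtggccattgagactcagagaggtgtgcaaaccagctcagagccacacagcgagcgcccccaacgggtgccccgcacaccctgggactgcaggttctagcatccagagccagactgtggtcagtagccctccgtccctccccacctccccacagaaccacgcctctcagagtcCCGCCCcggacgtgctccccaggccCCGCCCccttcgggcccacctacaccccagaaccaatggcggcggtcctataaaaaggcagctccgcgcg
Ly6c1, chr15:75048788-75049087, minus strand: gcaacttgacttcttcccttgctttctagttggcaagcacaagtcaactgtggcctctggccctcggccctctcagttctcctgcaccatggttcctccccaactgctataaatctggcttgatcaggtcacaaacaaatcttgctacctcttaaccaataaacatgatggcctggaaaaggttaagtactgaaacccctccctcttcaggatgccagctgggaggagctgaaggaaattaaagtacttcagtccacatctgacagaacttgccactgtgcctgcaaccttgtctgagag
Tek, chr4:94739039-94739338, plus strand: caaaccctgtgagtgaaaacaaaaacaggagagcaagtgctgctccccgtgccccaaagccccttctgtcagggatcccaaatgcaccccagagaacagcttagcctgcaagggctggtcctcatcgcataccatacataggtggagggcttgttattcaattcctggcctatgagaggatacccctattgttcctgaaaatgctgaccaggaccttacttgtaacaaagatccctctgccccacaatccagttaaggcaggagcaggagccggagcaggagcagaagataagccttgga
Kdr, chr5:75978406-75978705, minus strand: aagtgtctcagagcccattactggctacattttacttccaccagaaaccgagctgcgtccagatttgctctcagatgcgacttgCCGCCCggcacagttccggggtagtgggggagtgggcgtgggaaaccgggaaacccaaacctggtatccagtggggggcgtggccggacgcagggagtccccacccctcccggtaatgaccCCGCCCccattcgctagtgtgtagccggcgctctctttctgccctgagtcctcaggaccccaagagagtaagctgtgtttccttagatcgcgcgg
Slc2a1 and Kdr each held 2 GC boxes, and no ETS core or GC box was found in the windows of Tek and Ly6c1. The hits in capitals did not overlap. An ETS core was found in 3 of the 8 windows (Flt1, Slco1a4 and Abcb1a) and in 35.4% of the 32851 mouse promoter windows, a GC box in 4 of 8 and in 35.7%, and a TATA box (TATAAA, either strand) in 3 of 8 (Flt1, Slc2a1 and Ly6c1) and in 13.6%. GC content was 65.3% in Slc2a1, 60.7% in Kdr, 52.0% in Tek and 49.0% in Ly6c1, against a median of 52.7% over all windows. A match describes these letters and is not evidence of binding.

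Total counts were 21421850 to 32544929 in the 18 cerebellar libraries and 17609321 to 45544188 in the 17 hippocampal libraries used, and a member had 243 to 5403 counts in a library. Whole-gene Pogz went from 96.3 ± 13.02 CPM (counts scaled to library size; SD, n = 6) in control to 64.3 ± 7.44 in cKO-/- cerebellum, and from 93.7 ± 1.28 to 63.2 ± 3.75 (n = 5) in the hippocampus. The 7 cerebellar markers, such as Gabra6 and Pcp2, summed to 4171 to 7350 CPM in the cerebellum and 146 to 461 CPM in the hippocampus, where control Sample_1129 was the highest. The hippocampal cKO-/- library of Sample_1160 stood apart and was left out, as described at the end. The labels number the animals in 3 runs, here called low (Sample_933 to Sample_938), middle (Sample_1120 to Sample_1219) and high (Sample_1371 to Sample_1433), and what the numbers stand for was not given in the sources used here. All 6 controls were middle-numbered. The 4 high-numbered animals were 3 cKO-/- (Sample_1371, Sample_1379, Sample_1385) and 1 cKO+/- (Sample_1433), and their hippocampal libraries had the 4 lowest totals of that tissue (17609321 to 26091000 counts).

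Among the members, levels in the control cerebellum were compared per kilobase of exon (RPKM). Slc2a1 was highest at 60.9 ± 6.06 RPKM (SD, n = 6), followed by Cldn5 (22.6 ± 9.33), Ly6c1 (16.1 ± 4.07) and Slco1a4 (15.8 ± 1.21), which did not differ beyond their SD. Flt1 (8.79 ± 1.52) and Abcb1a (8.005 ± 1.28) also lay within their SD of each other. Pecam1 (5.94 ± 0.536 RPKM), Cdh5 (4.70 ± 0.616), Tek (3.68 ± 0.473) and Kdr (2.42 ± 0.611) followed, and each step between these neighbours was larger than either SD. In the control hippocampus Slc2a1 (35.9 ± 3.28 RPKM) and Cldn5 (16.1 ± 4.12) again led. Slco1a4 (9.70 ± 1.86) and Ly6c1 (9.47 ± 1.24) did not differ beyond their SD. Flt1 (4.31 ± 0.700), Pecam1 (3.68 ± 0.433) and Abcb1a (3.58 ± 0.292) each lay within the larger SD of their neighbour. Cdh5 (2.29 ± 0.168 RPKM), Tek (2.01 ± 0.241) and Kdr (1.73 ± 0.346) were lowest, with Tek and Kdr within the SD of Kdr, and Cdh5 above Tek by slightly more than either SD. The spread over control animals was not alike for all members, with a coefficient of variation of 7.66% for Slco1a4 and 41.3% for Cldn5 in the cerebellum. Cldn5 ran from 15.8 CPM (Sample_1129) to 51.1 CPM (Sample_1190) among control cerebella.

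**Figure D1:**
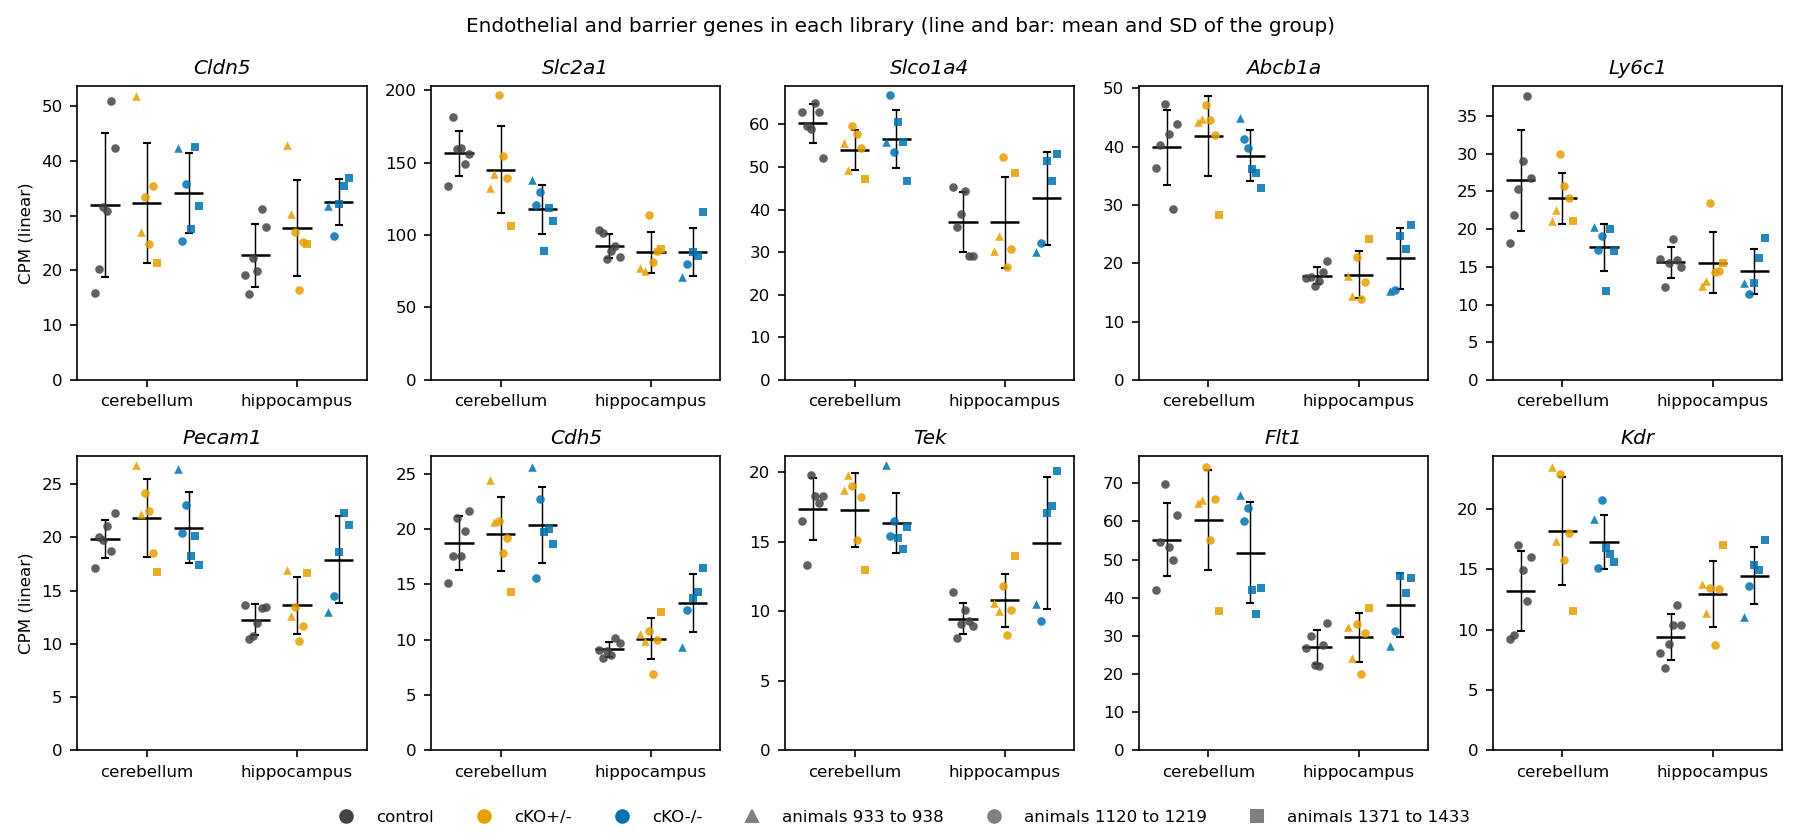
CPM of each member in the 35 libraries (y axis, linear, from 0) by tissue, with genotype as colour, the run of animal numbers as the shape of the point, and the mean and SD of each group as line and bar. For Tek in the hippocampus, the squares (high-numbered animals) of cKO-/- lie at 17.1 to 20.1 CPM, above every control, and the other cKO-/- points lie at 9.29 and 10.5 CPM.

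In the hippocampus, 4 members were higher with each Pogz allele lost: the junction genes Pecam1 and Cdh5 and the receptors Tek and Kdr. No member was lower. Over all 14339 genes tested in this tissue 2.09% were called higher and 2.35% lower. The effect was tested as a trend over 0, 1 and 2 alleles lost, with sex in the model, in edgeR's quasi-likelihood F-test at a false discovery rate (FDR) of 0.05 over all genes tested. The median log2 change of the 10 members was 0.26 per allele, against 0.0017 over all genes tested, and 8 of the 10 estimates were positive.

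Tek, the Tie2 receptor, was at 8.05 (lowest), 9.19 (median) and 11.3 CPM (highest) in the 6 control hippocampi, at 8.32, 10.3 and 13.9 CPM in cKO+/-, and at 9.29, 10.5, 17.1, 17.5 and 20.1 CPM in the 5 cKO-/- libraries. The first 2 of these, Sample_1219 and Sample_936, lay within the control range, and the other 3, Sample_1371, Sample_1379 and Sample_1385, lay above every control. The log2 change was 0.33 per allele lost (SE 0.083, 1.26-fold, edgeR adjusted p = 0.0287).

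Kdr, the main signalling receptor for VEGF-A, was at 6.83, 9.59 and 12.1 CPM (lowest, median, highest) in control, 8.76, 13.4 and 17.02 CPM in cKO+/-, and 11.1, 13.6, 14.9, 15.4 and 17.4 CPM in cKO-/-. Only Sample_936, at 11.1 CPM, was below the highest control among these cKO-/- libraries. Its log2 change was 0.32 per allele (SE 0.083, 1.25-fold, edgeR adjusted p = 0.0344). For cKO+/- against control alone, with genotype as a factor, its log2 difference was 0.46 (SE 0.154, edgeR adjusted p = 0.308), which did not pass the test.

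Cdh5, or VE-cadherin, was at 8.32, 9.02 and 10.1 CPM in control, 6.89, 10.2 and 12.5 CPM in cKO+/-, and 9.37, 12.7, 13.7, 14.3 and 16.5 CPM in cKO-/-. Here Sample_936 was again the cKO-/- library inside the control range. The log2 change was 0.27 per allele (SE 0.069, 1.21-fold, edgeR adjusted p = 0.0305). Pecam1, or CD31, was at 10.4, 12.7 and 13.6 CPM in control, 10.3, 13.05 and 16.96 CPM in cKO+/-, and 12.95, 14.5, 18.6, 21.1 and 22.3 CPM in cKO-/-. Its log2 change was 0.27 (SE 0.076, 1.21-fold, edgeR adjusted p = 0.0482), close to the threshold.

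The second VEGF receptor of the list and the tight junction gene had estimates of like size that did not pass the test. Flt1, which binds VEGF and limits its action on Kdr, had a log2 change of 0.25 (SE 0.078, edgeR adjusted p = 0.0801), and Cldn5 one of 0.26 (SE 0.097, edgeR adjusted p = 0.139). The transporters had smaller estimates, at 0.12 for Slco1a4 (SE 0.087), 0.11 for Abcb1a (SE 0.078) and -0.03 for Slc2a1 (SE 0.055), and Ly6c1 was at -0.04 (SE 0.064). In the 2-sided exact permutation test of cKO-/- against control, whose smallest p is 0.00433 with 5 against 6 libraries, the unadjusted p was 0.00649 for Cdh5 and Kdr, 0.00866 for Pecam1 and 0.0216 for Tek. No member had cKO-/- and control hippocampal libraries that did not overlap, which 3.71% of all genes tested had.

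All 4 calls were lost without the high-numbered animals. Over all genes tested, calls in that fit fell from 636 to 101, with 2 cKO-/- hippocampal libraries left. With these 4 animals left out, the log2 change was 0.08 for Tek (edgeR adjusted p = 0.612), 0.11 for Cdh5 (adjusted p = 0.523), 0.07 for Pecam1 (adjusted p = 0.714) and 0.22 for Kdr (adjusted p = 0.341). Within the middle-numbered animals alone, where 1 cKO-/- hippocampal library remained, the values were 0.05, 0.15, 0.06 and 0.28, with edgeR adjusted p of 0.957, 0.794, 0.938 and 0.672. With the run of numbers as a factor, they were 0.09, 0.15, 0.07 and 0.19 (edgeR adjusted p 0.702 to 0.905), and 58 genes were called in all. Without Sample_1371, Sample_1379 or Sample_1385, and without control Sample_1155 or Sample_1170, none of the 10 members passed. The low and high runs held no control, so the run and the genotype can be separated only in part. With the left-out library of Sample_1160 included the 4 members were not called either (edgeR adjusted p 0.216 to 0.463).

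In the cerebellum, 2 members were lower with each allele lost, the glucose transporter gene Slc2a1 and the surface antigen gene Ly6c1, and none was higher. Over all 14027 genes tested 6.55% were called lower and 7.11% higher. The median log2 change of the 10 members was -0.04 per allele, against 0.00087 over all genes tested, with 4 positive and 6 negative estimates.

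Slc2a1 was at 134, 158 and 181 CPM (lowest, median, highest) in control cerebella, 106, 141 and 197 CPM in cKO+/- and 89.3, 120 and 138 CPM in cKO-/-. Of the 6 cKO-/- libraries 5 lay below every control, and the sixth, of Sample_936, was above the lowest control. The change per allele was -0.21 on the log2 scale (SE 0.061, 1.16-fold lower, edgeR adjusted p = 0.0283). The 2-sided exact permutation test of cKO-/- against control gave an unadjusted p of 0.00433, where 6 against 6 libraries cannot go below 0.00216.

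Ly6c1 was at 18.1, 26.0 and 37.7 CPM in control cerebella, 21.0, 23.3 and 30.0 CPM in cKO+/- and 11.8, 18.1 and 20.2 CPM in cKO-/-. The groups overlapped, since the lowest control, Sample_1129, was at 18.1 CPM, and 3 cKO-/- libraries were below it. The change was -0.30 per allele (SE 0.080, 1.23-fold lower, edgeR adjusted p = 0.0202). The exact permutation p was 0.0108, unadjusted. Ly6c1 shares read-length sequence with Ly6c2, as given above.

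Neither cerebellar call held without the high-numbered animals, whose cerebellar cKO-/- libraries included the lowest values of both genes. Calls over all genes in that fit were 538, against 1916 with every animal. The log2 change was then -0.12 for Slc2a1 (edgeR adjusted p = 0.195) and -0.23 for Ly6c1 (edgeR adjusted p = 0.141), and within the middle-numbered animals alone it was -0.13 and -0.23 (edgeR adjusted p = 0.363 and 0.343). Both kept a negative sign in the 13 alternatives run, and 8 of the 13 called each of them. Leaving out Sample_1155, Sample_1190, Sample_1371 or Sample_1385 in turn left 1 of the 2 called. The largest other estimate in this tissue was that of Kdr, at 0.19 (SE 0.094, edgeR adjusted p = 0.185), with 9.23, 13.7 and 16.98 CPM in control and 15.1, 16.5 and 20.8 CPM in cKO-/-. Cldn5, Flt1, Pecam1, Cdh5, Slco1a4, Abcb1a and Tek had log2 changes from -0.05 to 0.06, none past the test. No member had cKO-/- and control cerebellar libraries that did not overlap, which 4.52% of the genes tested had.

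**Figure D2:**
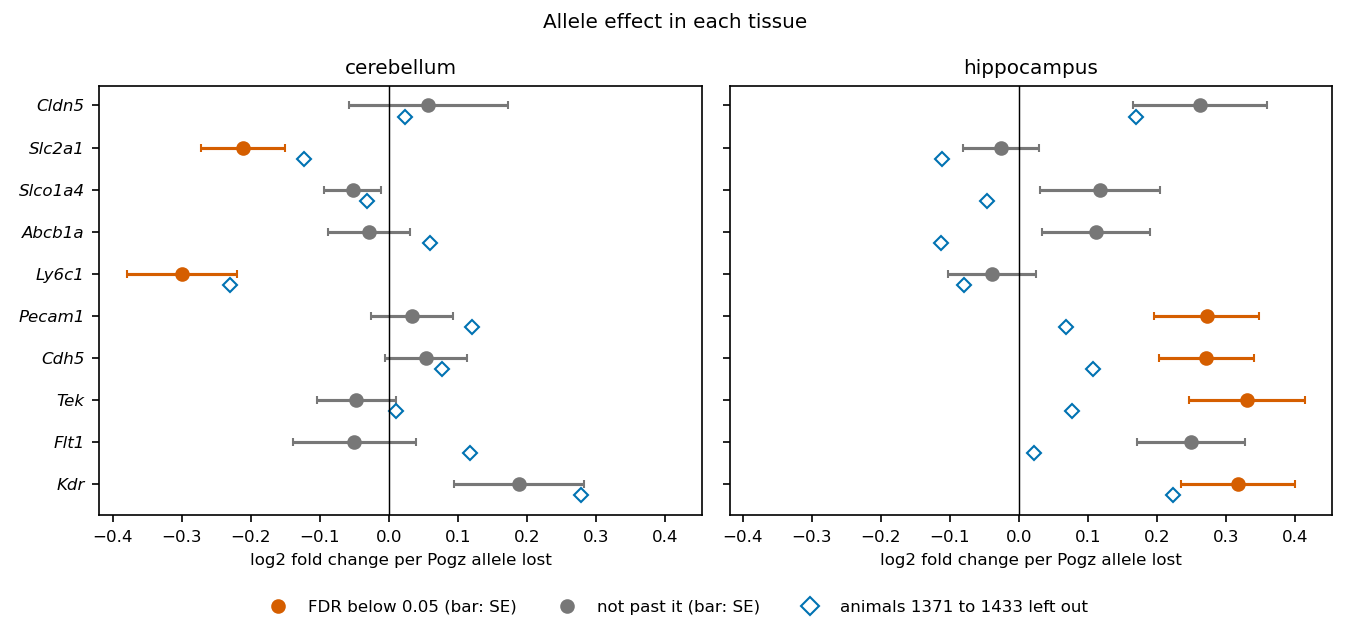
Log2 fold change per Pogz allele lost (x axis) of each member (y axis) in the cerebellum and the hippocampus, with SE bars, in colour where FDR was below 0.05, and as open diamonds with the high-numbered animals left out. In the hippocampus the diamonds of Tek, Pecam1 and Cdh5 lie at 0.07 to 0.11, against 0.27 to 0.33 with those animals.

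Between tissues, all 10 members were called lower in the hippocampus than in the cerebellum, by 1.37-fold for Cldn5 to 2.33-fold for Abcb1a. Like all tissue contrasts below, these are estimates at 0 alleles lost from 1 fit over 35 libraries, which the mutants also shape. Lower calls made up 38.0% of the 14870 genes tested, and the median log2 difference was -0.81 for the members and -0.01 over all genes. In the 12 control libraries alone 9 members were called, with Flt1 at -1.04 and Pecam1 at -0.69 on the log2 scale. Cldn5 was not called there (edgeR adjusted p = 0.0908). Abcb1a was the only member for which every one of the 17 hippocampal libraries (at most 26.5 CPM) lay below every one of the 18 cerebellar libraries (at least 28.2 CPM), which 14.5% of all genes tested did. CPM is a share of a library, and the tissues differ in their other cells.

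Abcb1a, P-glycoprotein, was at 29.2, 41.2 and 47.3 CPM in control cerebella and 16.1, 17.5 and 20.3 CPM in control hippocampi. The fit over 35 libraries gave a log2 difference of -1.22 (SE 0.130, edgeR adjusted p = 3.45e-10). Its near copy Abcb1b went the other way, with a log2 difference of 0.97 (edgeR adjusted p = 3.03e-09), and the genes share 19% of read-length windows of Abcb1a. Flt1 fell from 42.1, 53.9 and 69.7 CPM in control cerebella to 22.1, 27.2 and 33.4 CPM in control hippocampi (log2 -1.14, SE 0.160, edgeR adjusted p = 1.17e-07). For the second VEGF receptor, Kdr, the difference was smaller, from 9.23, 13.7 and 16.98 to 6.83, 9.59 and 12.1 CPM (log2 -0.53, SE 0.166, edgeR adjusted p = 0.00445). Cdh5 differed by -1.08 (SE 0.119), Tek by -0.93 (SE 0.131), Ly6c1 by -0.81 (SE 0.135), Slc2a1 by -0.81 (SE 0.109), Pecam1 by -0.76 (SE 0.125) and Slco1a4 by -0.71 (SE 0.125) on the log2 scale, all called. Cldn5 had the smallest difference at -0.45 (SE 0.203, edgeR adjusted p = 0.0430), with 15.8, 31.2 and 51.1 CPM in control cerebella and 15.7, 21.1 and 31.3 CPM in control hippocampi. It was not called in 9 of the 18 fits that left out 1 animal. These fits do not pair the tissues of an animal. With the animal as a replicate block, the edgeR adjusted p of Cldn5 was 0.00415 over the 35 libraries and 0.00948 in the 12 control libraries.

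The same animals gave both tissues, and the difference within an animal did not look alike in all of them. In the 13 other animals, outside the high run, the members' mean log2 differences were between -0.37 (Cldn5) and -1.28 (Abcb1a), and in 11 of the 13 all 10 members were lower in the hippocampus. The exceptions were cKO+/- Sample_938 and control Sample_1129, with 9 of 10, and in each it was Cldn5 that was higher. The cKO-/- Sample_936 and Sample_1219 belonged to the 11. In Sample_1371, Sample_1379, Sample_1385 and Sample_1433, by contrast, 5, 7, 2 and 5 of the 10 members were lower.

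Tek differed by 0.10 to 0.32 in these 4 animals and by -1.08 to -0.52 in the other 13. Flt1 differed by 0.03 to 0.20 in the 4 and by -1.62 to -0.64 in the 13. Pecam1 (-0.01 to 0.28 against -1.09 to -0.32) and Cdh5 (-0.51 to -0.17 against -1.40 to -0.70) were apart as well. Of all genes tested 3.81% were apart in this way in either direction, against these 4 of the 10 members. The median over the members was 0.01 in the 4 animals and -0.76 in the 13, while over the 5658 genes called lower in the hippocampus of controls it was -0.44 and -0.53.

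Both tissues contributed. The 10 members summed to 316 to 379 CPM in the 4 cerebella of high-numbered animals against 367 to 528 CPM in the other 14, and to 301 to 372 CPM in their hippocampi against 207 to 321 CPM in the other 13. The 25 other endothelial genes moved in the same directions, at 324 to 391 against 385 to 500 CPM in the cerebellum and 388 to 462.5 against 284 to 393 CPM in the hippocampus. Slc2a1 was the largest part of the members' cerebellar sum, with a mean of 106 CPM in high-numbered cKO-/- and 157 in control cerebella. Cldn5 (34.0 against 32.0), Cdh5 (19.5 against 18.7) and Kdr (16.2 against 13.2) were not lower in these cKO-/- cerebella, and every other member was. The 7 hippocampal markers, such as Prox1, were at 88.5 to 105 CPM in the 4 cerebella and 66.1 to 107 CPM in the others, and the cerebellar markers at 158 to 200 CPM in the 4 hippocampi and 146 to 461 CPM in the others. Markers of some other cells shifted with the high-numbered cerebella too, while the oligodendrocyte genes (5393 to 8120 against 3720 to 8998 CPM) were not set apart. The 4 listed genes of the fenestrated endothelium list summed to 99.8 to 140 CPM there and 141 to 204 CPM in the other 14, with no overlap. Plvap, described below, made up only a small part of this sum, which does not by itself describe fenestrated endothelium. The neuronal genes (4849 to 5758 against 5587 to 6994 CPM) and the cerebellar markers (4171 to 5784 against 5301 to 7350 CPM) lay lower with some overlap. The perivascular fibroblast genes (226 to 320 against 130 to 266 CPM), the astrocyte genes (5850 to 7884 against 5410 to 6517 CPM) and the microglial genes (85.2 to 122 against 68.4 to 103 CPM) reached higher. In the hippocampus the hippocampal markers lay at 658 to 764 against 686 to 971 CPM and the neuronal genes at 6259 to 7185 against 5329 to 6836 CPM. The 15 mural cell genes of pericytes and smooth muscle were at 246 to 263 against 228 to 307 CPM in the cerebellum and 209 to 262 against 170 to 229 CPM in the hippocampus. Total counts were lower in the 4 hippocampal libraries (17609321 to 26091000 against 30389900 to 45544200) but not set apart in the 4 cerebellar ones (21421800 to 31247300 against 22978200 to 32544900). The part of depth, of these other cells, or of whatever the numbers stand for, in these differences was not tested.

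**Figure D3:**
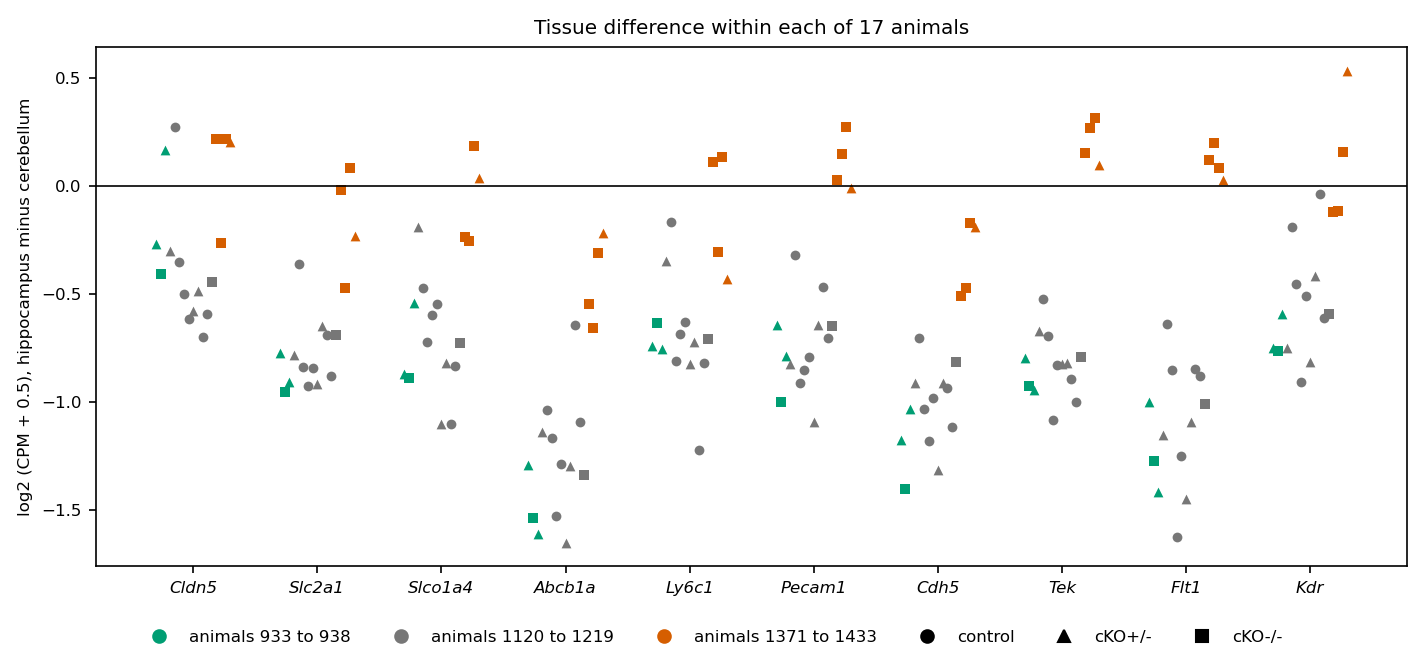
Difference between the hippocampal and the cerebellar log2 (CPM + 0.5) of the same animal (y axis) for each member (x axis) in 17 animals, with the run of animal numbers as colour and the genotype as shape. For Tek and Flt1 the 4 high-numbered animals lie above 0 and all other animals, cKO-/- Sample_936 and Sample_1219 included, lie below it.

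Whether the allele effect itself differed between the tissues was tested as an interaction. No member passed it in edgeR, against 1.63% of all genes tested. An unadjusted p under 0.05 was found for 5 of the 10 members and for 2127 of the 14870 genes tested. All 10 estimates were positive, the effect in the hippocampus being the higher. Tek had the smallest p, with a log2 difference of 0.37 per allele (SE 0.103, edgeR adjusted p = 0.0610), and DESeq2 called it, the only member it called. Without the high-numbered animals the estimate for Tek was 0.06 and those of Flt1, Pecam1, Slco1a4, Abcb1a and Kdr were negative. The calls in one tissue and not the other are thus not shown to differ between the tissues.

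The sexes were compared in the same models. No member was called between males and females in edgeR, where 0.0499% of genes in the cerebellum and 0.907% in the hippocampus were called. No member had an unadjusted p under 0.05 in the cerebellum, and 2 had in the hippocampus, Ly6c1 (log2 -0.33, male minus female) and Slco1a4 (log2 -0.30). Over all genes tested, 475 of 14027 in the cerebellum and 2308 of 14339 in the hippocampus had such a p.

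Set against other endothelial genes of the same library, the members did not all lie on the same side. The reference was the mean log2 level of 24 pan-endothelial genes that passed the filter, and the differences are described without a test. Of these 24, 3 were themselves called lower in the cerebellum, where 7 estimates were positive. In the hippocampus 3 were called higher and 1 lower, and 20 estimates were positive. A difference from this mean thus also holds any shift of the mean itself. Kdr was higher relative to this mean in both tissues, by 0.55 in cKO-/- cerebellum and 0.40 in cKO-/- hippocampus compared with control. Its range was 0.59 to 0.96 in the 6 cKO-/- cerebella and -0.14 to 0.54 in control, without overlap, and 0.31 to 0.60 against -0.25 to 0.37 in the hippocampus. Cldn5 was higher by 0.32 and 0.33, with ranges that overlapped in both tissues.

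Slc2a1 and Ly6c1 were lower on this scale in both tissues. Slc2a1 differed by -0.27 in the cerebellum and -0.29 in the hippocampus, where the 5 cKO-/- libraries (2.94 to 3.15) lay below the 6 controls (3.20 to 3.58). These were the only member in each tissue whose cKO-/- and control libraries did not overlap on this scale, on which 3.56% of all genes tested did not overlap in the cerebellum and 5.21% in the hippocampus. Ly6c1 differed by -0.42 and -0.33. Without the reference, the cKO-/- minus control difference of mean log2 level in the hippocampus was -0.08 for Slc2a1 and -0.12 for Ly6c1. In the cerebellum it was -0.42 and -0.56. Outside the high run, 3 cKO-/- animals were left in the cerebellum and 2 in the hippocampus. Relative to the reference, they differed from control by -0.25 and -0.36 for Slc2a1, -0.43 and -0.41 for Ly6c1, and 0.51 and 0.32 for Kdr. Tek differed there by 0.03 and -0.0031, against 0.07 and 0.37 with all cKO-/- animals.

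**Figure D4:**
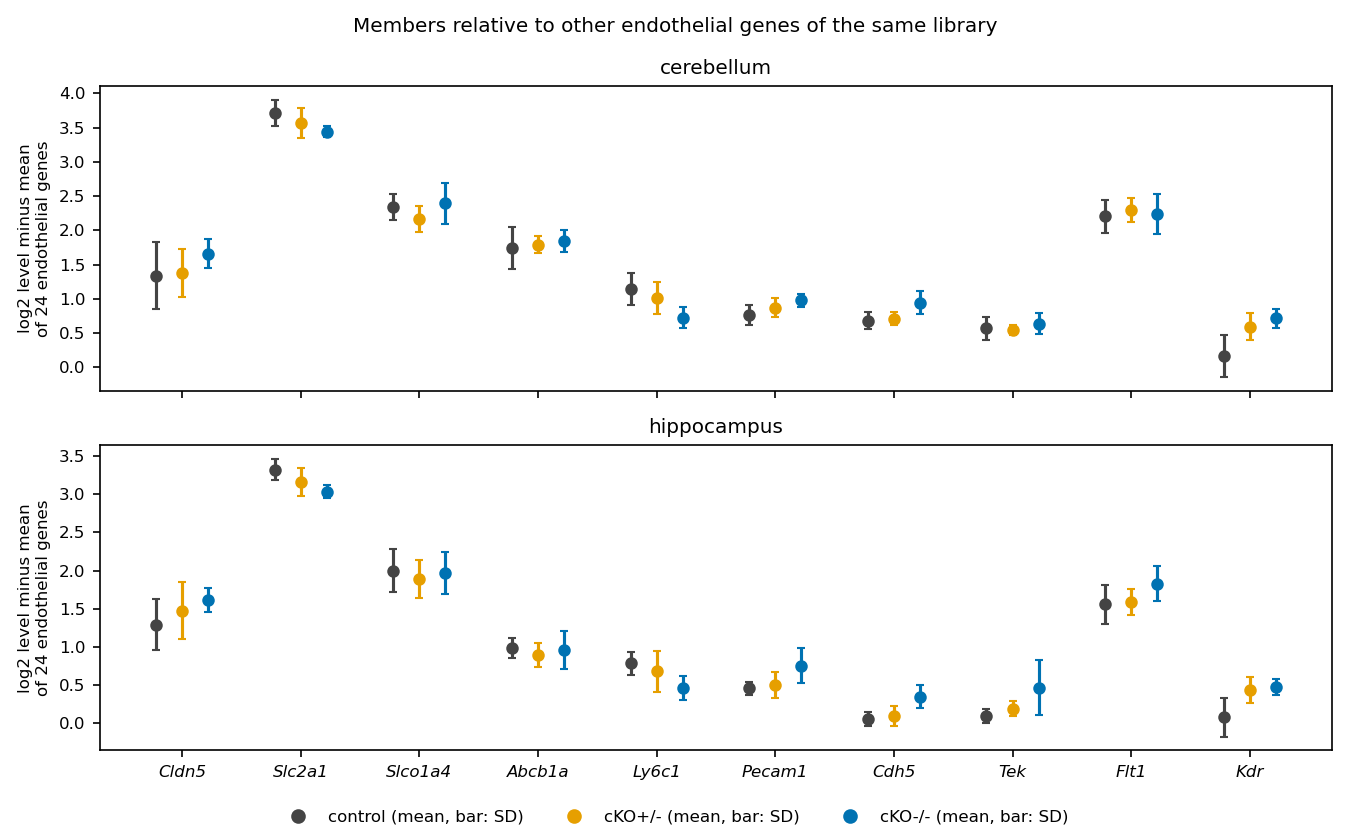
Log2 level of each member minus the mean log2 level of 24 other endothelial genes in the same library (y axis), as mean and SD per genotype, in the cerebellum (top) and the hippocampus (bottom). Kdr lies higher in cKO-/- than in control by 0.55 and 0.40, and Slc2a1 and Ly6c1 lie lower in both tissues.

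Of the 24 pan-endothelial genes tested, 3 were lower and none higher with each allele lost in the cerebellum (median log2 change -0.08), and 3 were higher and 1 lower in the hippocampus (median 0.11). For this list and those below, the shares of all genes tested were 7.11% higher and 6.55% lower in the cerebellum. In the hippocampus they were 2.09% and 2.35%. Ramp2, the co-receptor for adrenomedullin, fell in both tissues, from 22.4 ± 5.06 to 12.5 ± 1.34 CPM in the cerebellum (SD, n = 6 and 6) and from 24.6 ± 1.92 to 18.7 ± 2.68 CPM in the hippocampus (n = 6 and 5), with log2 changes per allele of -0.42 (SE 0.076, edgeR adjusted p = 0.00164) and -0.19 (SE 0.048, edgeR adjusted p = 0.0308). Sox17, a transcription factor of arterial endothelium, fell in the cerebellum (log2 -0.36, edgeR adjusted p = 0.0170). Itm2a (log2 0.24, edgeR adjusted p = 0.00601) and Clec14a (log2 0.38, edgeR adjusted p = 0.00604) rose in the hippocampus. Without the high-numbered animals, Ramp2 alone of the 24 was called in the cerebellum (log2 -0.39, edgeR adjusted p = 0.0298) and none in the hippocampus. In the tissue contrast 17 of the 24 were lower and 3 higher in the hippocampus, with a median of -0.62. Cd34 (log2 1.02, edgeR adjusted p = 6.36e-13) and Egfl7 (log2 0.81, edgeR adjusted p = 1.26e-08) were higher there, unlike all 10 members.

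Plvap, which marks fenestrated endothelium without a barrier, fell in the cerebellum with each allele lost. It was at 19.2 to 25.6 CPM in control, 13.7 to 16.6 CPM in cKO+/- and 8.34 to 13.7 CPM in cKO-/-, with a log2 change of -0.43 per allele (SE 0.052, edgeR adjusted p = 2.66e-05). The cKO+/- and cKO-/- libraries each lay below every control. Its allele effect differed between the tissues (interaction log2 0.32, SE 0.076, edgeR adjusted p = 0.0219), and in the hippocampus it was at 6.53 to 9.66 CPM in control and 4.77 to 7.28 CPM in cKO-/-. Of the 5 genes of this list, 4 were listed and 3 tested, and Plvap alone was called, also without the high-numbered animals.

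Of the 10 other tight junction genes none was called with genotype in either tissue (edgeR, median log2 change -0.00039 in the cerebellum and 0.09 in the hippocampus). Between control tissues 9 of the 10 were lower in the hippocampus, Cldn12 by -1.08 and Marveld2 (tricellulin) by -3.77 on the log2 scale, and Tjp1 (ZO-1) was higher (log2 0.33, edgeR adjusted p = 6.46e-04). Among 15 other barrier transport genes, 3 rose in the cerebellum and 1 in the hippocampus with each allele lost, against 7.11% and 2.09% of all genes tested. Slc16a1, the monocarboxylate transporter MCT1, rose in both, with log2 changes of 0.23 (SE 0.039, edgeR adjusted p = 0.00103) and 0.26 (SE 0.060, edgeR adjusted p = 0.0205), and Slc22a8 rose in the cerebellum (log2 0.17, edgeR adjusted p = 0.0156). Without the high-numbered animals 2 of the 15 were called in the cerebellum, Slc16a1 among them (edgeR adjusted p = 0.0173), and none in the hippocampus. Slc16a1 was then at log2 0.11 in the hippocampus (edgeR adjusted p = 0.443), and Slc22a8 was not called in the cerebellum (edgeR adjusted p = 0.153). In the tissue contrast 7 of the 15 were lower and 4 higher in the hippocampus, where 38.0% of the 14870 genes tested were lower and 5545 higher.

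The ligands and partners of Kdr, Flt1 and Tek were read from 16 further genes of VEGF, angiopoietin, Notch and apelin signalling. In the cerebellum 15 were tested, 5 rose and 2 fell, and in the hippocampus 15 were tested and 2 rose. Angpt1, the ligand that activates Tek, rose in both tissues, from 18.1 ± 2.42 to 27.7 ± 3.86 CPM in the cerebellum (log2 0.30 per allele, SE 0.055, edgeR adjusted p = 0.00202) and from 6.63 ± 1.11 to 10.7 ± 2.58 CPM in the hippocampus (log2 0.35, SE 0.090, edgeR adjusted p = 0.0315). The VEGF co-receptor Nrp1 rose in the cerebellum (log2 0.36, SE 0.083, edgeR adjusted p = 0.00890), and its effect differed between the tissues (interaction log2 -0.39, edgeR adjusted p = 0.0219). Vegfc rose in the hippocampus (log2 0.25, edgeR adjusted p = 0.0391). Flt4, the receptor for VEGF-C, and Notch4 fell in the cerebellum, by 0.24 and 0.29 on the log2 scale (edgeR adjusted p = 0.0440 and 0.0488). Without the high-numbered animals, Angpt1 alone of the 15 was called in the cerebellum (edgeR adjusted p = 0.00150) and none in the hippocampus, and the interaction of Nrp1 was not called (log2 -0.43, adjusted p = 0.0852).

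Of 15 genes of the Wnt and norrin pathway that induces the barrier, 2 rose in the cerebellum and 1 in the hippocampus. Over all genes tested, 7.11% and 2.09% rose. Tspan12, a co-receptor for norrin, rose in both, from 15.1 ± 0.648 to 23.9 ± 2.75 CPM in the cerebellum (log2 0.32 per allele, SE 0.041, edgeR adjusted p = 4.95e-05) and from a mean of 21.8 to 26.3 CPM in the hippocampus (log2 0.14, SE 0.037, edgeR adjusted p = 0.0388). Wnt7b rose in the cerebellum (log2 0.34, edgeR adjusted p = 0.0120). With the high-numbered animals left out the cerebellar call of Tspan12 held (log2 0.26, edgeR adjusted p = 0.00290), and neither its hippocampal call (log2 0.07, adjusted p = 0.492) nor that of Wnt7b (adjusted p = 0.189) did. Between control tissues the Wnt ligands differed in opposite directions, Wnt7a by -2.43 and Wnt7b by 3.02 on the log2 scale, and norrin itself (Ndp) by -1.07, all called in edgeR.

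Markers of neighbouring cells were read against genotype as well. Over all genes tested, 7.11% were called higher and 6.55% lower in the cerebellum, and 2.09% and 2.35% in the hippocampus. A single call in a list is thus not a shift of the list. Of 14 mural cell genes tested, Des fell in the cerebellum (log2 -0.46, edgeR adjusted p = 0.00498) and Rgs5, a pericyte marker, rose in the hippocampus (log2 0.41, SE 0.091, edgeR adjusted p = 0.0154), and no other was called in either tissue. Neither call held without the high-numbered animals (edgeR adjusted p = 0.0593 for Des and 0.270 for Rgs5), and Rgs5 was then called higher in the cerebellum (log2 0.26, adjusted p = 0.0101). Of 8 perivascular fibroblast genes 6 rose in the cerebellum and 1 in the hippocampus (3 and 0 called without those animals), and their sum was 130 to 166 CPM in control and 147 to 320 CPM in cKO-/- cerebella, with none of the 8 at 0. Choroid plexus genes summed to 17.7 CPM in the lowest and 5108 CPM in the highest hippocampal library. The highest was cKO-/- Sample_1385, and control Sample_1129 was at 5037 CPM. Control cerebella were at 18.4 to 26.8 CPM. The cerebella of cKO+/- Sample_933, cKO-/- Sample_936 and cKO+/- Sample_1433 were at 2297, 2934.5 and 3054 CPM, and the other mutant cerebella at 19.9 to 74.8 CPM. None of the 5 tested in the cerebellum or the 6 in the hippocampus was called. Of 7 blood cell genes, 5 or 6 had no count in any library of a group, and only 1 was tested, so that this list does not measure the share of blood. The part of these cells in the members' values was not tested.

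The members varied together over animals within a genotype. The Spearman correlation of deviations from the tissue and genotype mean, over the 45 pairs of members, had a median of 0.54 in the cerebellum (18 libraries) and 0.58 in the hippocampus (17 libraries), as a description of libraries that share depth and scaling. The shift of the high-numbered animals described above stays in these deviations. These correlations, and those of the nearest genes below, are thus not free of the run of numbers. Slco1a4 was the exception in the cerebellum, with 0.02 against the mean of the other 9, and Cldn5 was lowest in the hippocampus, with 0.37. Cdh5 (0.86 and 0.93) followed the other members closely in both tissues. Among 13587 genes tested in both tissues, those nearest to the mean of the members were Eng (0.88), Tie1 (0.88), Foxq1 (0.87), Pdgfrb (0.87) and Fgd5 (0.86) in the cerebellum, and Ptprb (0.91), Erg (0.91), Slc40a1 (0.90), Adgrl4 (0.89) and Itm2a (0.88) in the hippocampus.

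In the left-out hippocampal library of cKO-/- Sample_1160, members departed in opposite directions. Cldn5 was at 83.2 CPM, against 15.7 to 43.01 CPM in the other 17 hippocampal libraries, and Ly6c1 at 24.7 CPM against 11.5 to 23.5 CPM. Flt1 was at 6.40 CPM against 19.9 to 45.7, Kdr at 2.63 against 6.83 to 17.4, and Cdh5 at 4.51 against 6.89 to 16.5. The departure followed summed exon length, from a log2 difference to the median of 1.60 for Cldn5 (1416 bases) to -2.18 for Flt1 (6280 bases). Over the 10 members the Spearman correlation of exon length with this difference was -0.92, and over 13587 genes it was -0.68. The cerebellar library of the same animal was in use and lay within the range of the others for Cldn5, at 25.3 CPM.

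**Figure D5:**
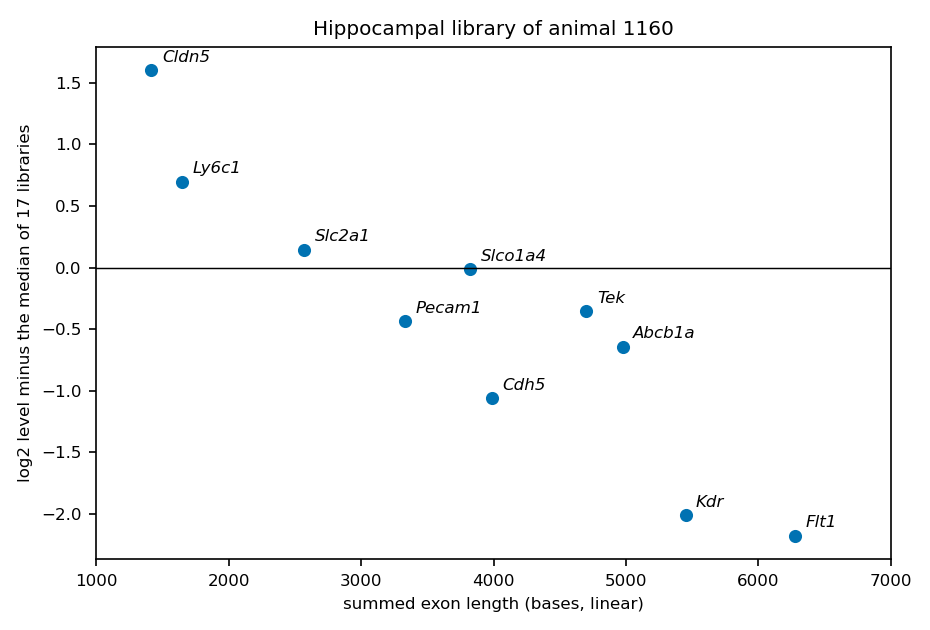
Log2 level in the left-out hippocampal library of Sample_1160 minus the median of the other 17 hippocampal libraries (y axis) against the summed exon length in bases (x axis) of each member. The shortest genes, Cldn5 and Ly6c1, lie above 0 and the longest, Flt1 and Kdr, lie 2.18 and 2.01 below it.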

How the data were processed

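Poly(A) RNA of the cerebellum and hippocampus of 18 mice was sequenced in 36 libraries as paired reads of 43 bases. The authors aligned reads with STAR (version 250a per the labels) and deposited 1 table of raw read counts per gene for each tissue. The build named in the methods is mm9, but the gene positions in both tables are those of GRCm38. What the strand setting of the counting was is not given in the sources used here. Groups came from the sample labels, and each column was mapped to a sample by its animal number and its table's tissue.

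From the deposited counts, a gene was kept if it exceeded 1 CPM in 6 or more libraries, TMM factors were taken, and edgeR's quasi-likelihood F-test (edgeR 4.0.16, R 4.3.3) was fitted across all genes with sex and the number of alleles lost, at an FDR of 0.05 (Benjamini-Hochberg). In the hippocampus 1 cKO-/- library (Sample_1160) was left out after filtering. The study left out 1 outlier without naming its tissue or animal, and the statistics it reported per gene pointed to this library. The tissue contrast and the interaction were fitted together over 35 libraries. An SE is the log2 change divided by the square root of F. CPM were scaled by TMM over all 36 libraries, RPKM also by summed exon length, and log2 levels used CPM + 0.5. Exact permutation tests were 2-sided.

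Alternatives were DESeq2 (1.42.0), other size factors, no filter, other models, the animal as a replicate block, and leaving out each animal. Those by run of animal numbers were chosen after seeing the data. The 2 libraries of an animal pair by design, coming from the same animal, and the median correlation of their deviations over genes was 0.19 (17 animals, above 0.1 in 13). Libraries of a group are from separate animals. The script was tested on simulated counts. The members and the gene lists were chosen with earlier results of these data known. Named genes of a list were the 2 called genes in each direction with the smallest adjusted p, or fewer, and the 5 genes of each tissue most like the members were ranked by Spearman correlation. Libraries of control mice are shared by all genotype contrasts.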

Additional observations from a re-analysis of the deposited data

Results flagged for a closer look

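Of 60 groups of 1 member in 1 tissue and genotype, 4 held a library far from the others, where chance gives about 1 in 20. Abcb1a was at 28.2 CPM in the cerebellum of cKO+/- Sample_1433, below the other 5 at 41.9 to 47.2 CPM. Ly6c1 was at 11.8 CPM in the cerebellum of cKO-/- Sample_1371, with the others at 17.1 to 20.2 CPM. Ly6c1 was also at 23.5 CPM in the hippocampus of cKO+/- Sample_1120, above the others at 12.4 to 15.5 CPM. Tek was at 20.5 CPM in the cerebellum of cKO-/- Sample_936, above the others at 14.4 to 16.4 CPM. Outside the libraries fitted, Cldn5 was at 83.2 CPM in the left-out hippocampal library of cKO-/- Sample_1160, above the 6 control libraries of that tissue at 15.7 to 31.3 CPM.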

How the results depend on the processing

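The cerebellar count of 2 members called, both lower, was the same with DESeq2, RLE or upper-quartile factors, no filter, no sex term, a bias-adjusted fit, without Sample_1160 and for cKO-/- against control. It was 0 for cKO+/- against control, with a covariate for animals outside the middle run, with the run as a factor, without the high-numbered animals and in the middle-numbered animals alone, and 1 to 2 with each animal left out. The hippocampal count of 4 was 3 with no filter, 5 with DESeq2, 0 under those same 5 settings and with all 18 libraries, and 0 to 5 with each animal left out, 1 without control Sample_1192 and 2 without control Sample_1129, Sample_1172 or Sample_1190. Calls over all genes fell as well. With the covariate, the run as a factor and the high-numbered animals left out, they were 308, 365 and 538 in the cerebellum, against 1916. In the hippocampus they were 68, 58 and 101, against 636. The tissue contrast called 8 to 10 members. With the animal as a replicate block it called 10 (11498 genes in all) and the interaction 0, so that in these fits the replicate block changed no call, although the count over all genes in the interaction moved from 243 to 354. In the 12 control libraries alone 9 members were called without the block, where Cldn5 was not (edgeR adjusted p = 0.0908), and 10 with it (Cldn5 adjusted p = 0.00948). The interaction count was 1 with DESeq2 and 0 to 1 with each animal left out (1, Tek, without Sample_936, Sample_1176, Sample_1219 or Sample_1433). At the counts of 0 for the allele effect, 1 to 3 members in the cerebellum and 0 to 3 in the hippocampus had an unadjusted p under 0.05. Over all genes in the main fits, 4233 of 14027 in the cerebellum and 2883 of 14339 in the hippocampus had such a p. The causes were not tested.

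Signs turned only for changes that were not called. For cKO+/- against control these were Flt1 (0.129) and Abcb1a (0.0636) in the cerebellum and Ly6c1 (0.0011) in the hippocampus. With the covariate they were Flt1 (0.0274) and Abcb1a (0.0059) in the cerebellum, Slc2a1 (0.0116) in the hippocampus and Abcb1a (-0.00724) in the interaction, and with all 18 libraries Ly6c1 (0.0144). With the run as a factor they were Flt1 (0.0976), Slco1a4 (0.00287) and Abcb1a (0.0488) in the cerebellum, Slco1a4 (-0.0341) and Abcb1a (-0.0653) in the hippocampus, and Flt1 (-0.0231), Pecam1 (-0.0214), Slco1a4 (-0.0539), Abcb1a (-0.13) and Kdr (-0.0831) in the interaction. Without the high-numbered animals they were Flt1 (0.117), Abcb1a (0.0594) and Tek (0.011) in the cerebellum, Slco1a4 (-0.0458) and Abcb1a (-0.113) in the hippocampus, and Flt1 (-0.105), Pecam1 (-0.0619), Slco1a4 (-0.0254), Abcb1a (-0.182) and Kdr (-0.0658) in the interaction. In the middle-numbered animals alone they were Cldn5 (-0.0245), Flt1 (0.102) and Abcb1a (0.027) in the cerebellum, and Slco1a4 (-0.0176) and Abcb1a (-0.0819) in the hippocampus. With each animal left out, the cerebellar log2 change ran from -0.00351 to 0.0611 for Pecam1, -0.0037 to 0.128 for Cldn5, -0.0887 to 0.000513 for Flt1 and -0.0678 to 0.00157 for Abcb1a. A member had at least 243 counts in every library fitted.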

Other observations

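Genes of the cells around brain vessels changed in the cerebellum as well. Aqp4, the water channel of astrocyte endfeet, rose with each Pogz allele lost, from 448 ± 40.7 to 713 ± 38.1 CPM (SD, n = 6 and 6; log2 0.33 per allele, SE 0.054, edgeR adjusted p = 7.36e-04), and in the hippocampus from 158 ± 19.9 to 254 ± 52.5 CPM (n = 6 and 5; log2 0.35, SE 0.064, edgeR adjusted p = 0.00388). Of the 8 astrocyte genes, 4 rose in the cerebellum and 1 in the hippocampus, against 7.11% and 2.09% of all genes tested. Among perivascular fibroblast genes, Col1a2 rose from 38.4 ± 4.62 to 72.3 ± 14.5 CPM in the cerebellum (log2 0.45, SE 0.057, edgeR adjusted p = 4.21e-05) and Col3a1 from 7.56 ± 1.66 to 17.7 ± 5.41 CPM (log2 0.62, SE 0.105, edgeR adjusted p = 0.00104). Without the high-numbered animals, 3 of the 8 fibroblast genes and 3 of the 8 astrocyte genes were called in the cerebellum and none of either list in the hippocampus, where the log2 change of Aqp4 was then 0.23 (edgeR adjusted p = 0.192). Of the 8 genes of microglia and macrophages 3 rose in the cerebellum, and none was called without those animals.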
